A study of Mus musculus with 2 samples.

Results

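Cd200 and the genes for its receptors, Cd200r1 and Cd200r4, are described here across the cell classes of mouse spleen, as 3 genes among the 32285 measured. The members were chosen by their symbols and with measured values in view: Cd200 was among the genes with the lowest knock-in to wild-type ratio over all cells, and Cd200r1 and Cd200r4 were added as its receptor family. The low Cd200 ratio over all cells is therefore part of the choice and is given as a description. The study holds 1 library of splenocytes from wild-type spleen and 1 from spleen carrying the M694I change knocked into Mefv, from age-matched mice kept free of specific pathogens. Pyrin, the product of Mefv, starts an inflammasome, and variants of human MEFV cause familial Mediterranean fever. The labels name 1 mouse for each library and give no count of allele copies, sex or age.

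CD200 is a membrane glycoprotein of the immunoglobulin superfamily found on B cells, activated T cells, some dendritic cells, neurons and endothelium. It binds CD200R1, an inhibitory receptor best known on myeloid cells, which recruits the adaptors DOK1 and DOK2 and, through RasGAP, dampens Ras signalling and cytokine release. Cd200r4 belongs to the activating branch of the mouse receptor family, whose products have no inhibitory tail and signal through the adaptor DAP12 (Tyrobp).

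All members lie on chromosome 16 in GRCm38 (mm10). Cd200 lies at chr16:45382135-45409053 on the minus strand, Cd200r1 at chr16:44765736-44794978 and Cd200r4 at chr16:44811733-44839150, both on the plus strand. Mefv is on the same chromosome, 41.7 Mb from Cd200. No other annotated gene overlaps the 3 members, and no 31-base word of the last 500 bases of any Cd200r1 or Cd200r4 transcript occurred in a transcript of another family member. The 250 bases before the RefSeq start of Cd200 (GRCm38.p6, chr16:45409054-45409303, minus strand, written 5′ to 3′) are shown because Cd200 was lower in most knock-in B cell stages, with the match to a searched motif in capitals.
Cd200 promoter: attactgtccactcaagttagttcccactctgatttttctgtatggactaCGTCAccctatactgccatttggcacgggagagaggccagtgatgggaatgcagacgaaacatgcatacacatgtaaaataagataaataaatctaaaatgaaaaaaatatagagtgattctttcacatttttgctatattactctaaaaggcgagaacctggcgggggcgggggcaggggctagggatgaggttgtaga
The motif in capitals is CGTCA, the cyclic AMP response half-site, found 1 time on this strand or its complement. It occurred in 17.8% of the 32851 promoter windows of this length. The AP-1 letters TGANTCA, the NF-kB motif and the interferon-stimulated response element, searched on both strands, were not in this window, and were held by 6.75%, 1.41% and 2.98% of windows. The RefSeq table matched 2 of the 3 members, and Cd200r1 had no entry.

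Of 10449 wild-type and 9000 knock-in barcodes, 9380 and 8302 cells were kept, with medians of 2512 and 2008.5 UMIs (unique molecular identifiers, each counting 1 captured RNA molecule). In this text a level is given as CPM, the UMIs of a gene in 1e+06 UMIs of the class, and ratios are log2 of knock-in over wild-type CPM. With 1 library per genotype no test was possible. All intervals are 95% and cover counting error only, so differences between mice are not in them. Each cell was placed in a class by its marker UMIs, and the class names mean "like" such cells: B-like cells numbered 6246 in wild type and 5299 in knock-in, T-like cells 1916 and 1818, NK-like cells 361 and 184 and the myeloid classes together 433 and 333. The gates were set after the marker counts had been seen. Knock-in cells were shallower, and B-like cells had median UMI counts of 2349.5 and 1851. The libraries shared 27 barcode sequences, 21 of them among kept cells.

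Cd200 was mainly a B cell transcript in both libraries, and it was lower in the knock-in library. Over all kept cells 2786 wild-type and 1142 knock-in UMIs gave 94.4 and 48.7 CPM, a log2 ratio of -0.95 (-1.05 to -0.85). B-like cells held 84.6% of the wild-type and 80.5% of the knock-in UMIs of the gene. In them Cd200 stood at 126.7 CPM (121.6 to 131.9) in wild type and 68.7 CPM (64.3 to 73.3) in knock-in, a log2 ratio of -0.88 (-0.99 to -0.77). The share of B-like cells with a Cd200 UMI was 22.4% and 13.1%, and with every cell thinned to 1000 UMIs it was 11.2% and 7.09%. At least 4 UMIs of Cd200 were seen in 104 wild-type and 8 knock-in B-like cells. NK-like cells, a class that should hold little Cd200, had it in 0.554% and 0.543% of cells at median depths of 2191 and 1835.5 UMIs. These shares rest on 2 of 361 and 1 of 184 cells, with intervals of 0.07 to 1.99% and 0.01 to 2.99%. They are too few to show that the background was equal.

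**Figure D1:**
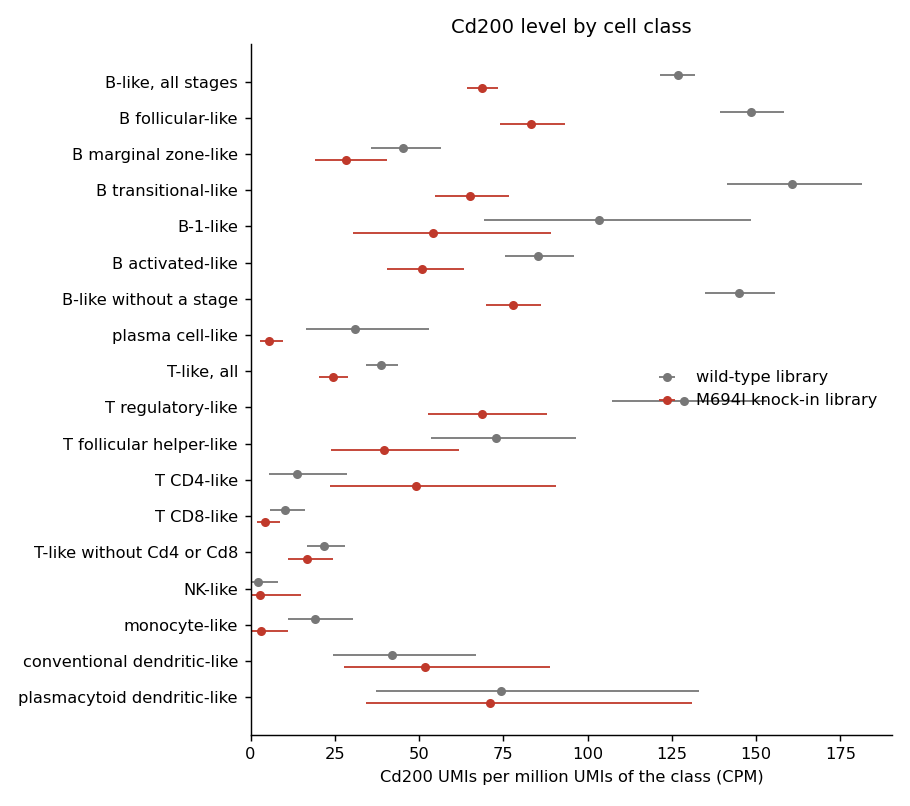
Cd200 level (CPM, x axis) in each cell class (y axis) of the wild-type library (grey) and the M694I knock-in library (red); points are class sums and bars 95% counting intervals. All B stages drawn are lower in the knock-in library, and CD4 T-like cells are higher, from 7 and 10 UMIs.

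Genes with 20 or more UMIs and a mean level of 10 CPM or above were compared, and one was called lower at a log2 ratio of -0.32 or below. Over all kept cells 22.4% of 7082 genes were lower by that rule, and 19 genes had a lower ratio than Cd200. This is the contrast Cd200 was chosen on, so nothing is read from its place. In B-like cells, which make up most of that contrast, 18.6% of 6880 genes were lower and 22 had a lower ratio than Cd200.

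With the 25 classes weighted at equal shares in both libraries the Cd200 ratio over all kept cells was -0.88. Wild-type levels combined with knock-in class shares gave a ratio of -0.03. In summed counts, fewer cells with the gene and less RNA per cell cannot be told apart. Both the share of B-like cells with a UMI and the number with several UMIs were lower in the knock-in library. Either change can lower both, so these values do not separate them, and the counts of cells with several UMIs were not thinned to equal depth.

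The B stages differed in level before the genotypes were compared. In wild type the order ran from transitional (160.5 CPM), follicular (148.6 CPM) and B-like cells without a stage (145 CPM), through B-1-like (103.4 CPM) and activated cells (85.2 CPM), down to marginal zone-like cells (45.3 CPM). The first 3 had overlapping intervals, and the wide interval of B-1-like cells (69.3 to 148.5 CPM) overlapped these and activated cells, while marginal zone-like cells lay below all the others. In the knock-in library the stages were closer, at 83.3 CPM in follicular, 77.7 CPM in cells without a stage, 65 CPM in transitional, 54.1 CPM in B-1-like, 51 CPM in activated and 28.4 CPM in marginal zone-like cells. Gated transitional cells, recent arrivals from the bone marrow, had the highest level in wild type but not in knock-in, where the intervals of the transitional and activated stages overlap. The expression cluster with the transitional marker Sox4 among its leading genes, however, had the highest B level in both libraries (268 and 136 CPM). The place of transitional cells thus depends on how they are defined.

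Transitional-like cells had the lowest stage ratio, -1.30 (-1.61 to -1.0), from 257 UMIs in 468 wild-type cells and 139 UMIs in 560 knock-in cells. The ratio was -0.91 in cells under 5% mitochondrial UMIs and -0.89 (-1.42 to -0.37) with the same cells thinned to 1000 UMIs. In the expression cluster with the transitional marker Sox4 it was -0.98 (-1.21 to -0.76), so the transitional value also depends on how the cells are defined. The transitional gate counts Cd24a, which was itself higher in knock-in B-like cells (ratio 0.50), and its part was not tested. Follicular-like cells, of the recirculating type, stood at -0.84 (-1.03 to -0.65), from 942 and 295 UMIs. With stricter gates the follicular ratio was -0.61 (-0.84 to -0.38), and in the expression clusters with follicular markers -0.64 (-0.87 to -0.40). The size of the follicular value thus also depends on how the cells are defined. B-like cells without a stage stood at -0.90 (-1.09 to -0.72), from 777 and 353 UMIs. Activated B-like cells, gated on Mir155hg, Nfkbid, Irf4, Myc and immediate early genes, held 274 and 83 UMIs and stood at -0.74 (-1.11 to -0.38); 23.6% of 6779 genes were lower there, and 286 genes had a lower ratio. With the same activated cells thinned to 1000 UMIs the ratio was -0.41 (-1.05 to 0.19), from 80 and 33 UMIs, an interval that includes 0. In B-1-like cells 29 and 15 UMIs gave -0.94 (-1.94 to 0.01), an interval that reaches 0, and -0.33 (-1.40 to 0.72) with stricter gates. Marginal zone-like cells, the blood-facing B cells of the spleen, stood at -0.68 (-1.33 to -0.05), from 78 and 30 UMIs, but the expression cluster with marginal zone markers stood at -0.11 (-0.62 to 0.38), so the marginal zone value depends on how the cells are defined. Germinal centre-like cells were too few for a ratio to be read, with 1 UMI in 6 wild-type and 4 UMIs in 18 knock-in cells. Plasma cell-like cells, the antibody secretors, held 13 UMIs in 34 wild-type cells and 11 in 147 knock-in cells, or 31 and 5.39 CPM, and 1 wild-type cell gave 46.2% of the wild-type UMIs.

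**Figure D2:**
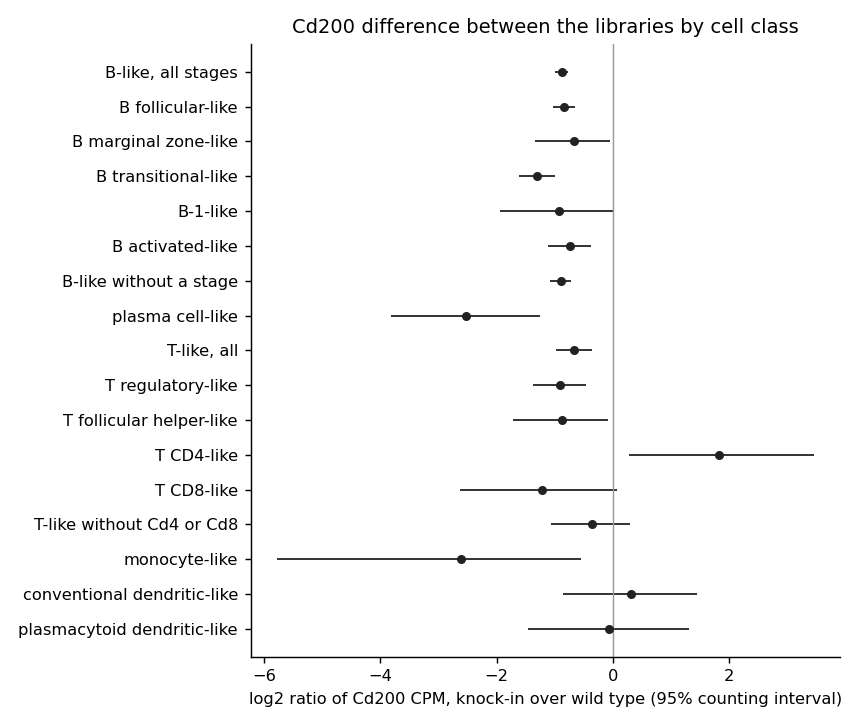
Log2 ratio of Cd200 CPM, knock-in over wild type (x axis), by cell class (y axis); bars are 95% counting intervals and the line marks no difference. The B stages lie between -1.30 and -0.68, both dendritic classes have intervals across 0, and CD4 T-like cells lie above 0.

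CD200 is known to be induced on activated T cells, and its level was set against the activation genes in the same B-like cells. After thinning to 1000 UMIs, Cd200 was most often seen in cells with no activation-marker UMI, in 13.5% (12.1 to 14.9) of 2304 wild-type cells and 8.16% (7.0 to 9.44) of 2011 knock-in cells. At 1 marker UMI the shares were 9.71% and 6.47%, at 2 they were 9.97% and 5.08%, and at 3 to 4 they were 10.3% (8.30 to 12.7) and 7.76% (5.82 to 10.1). At 5 to 9 marker UMIs they were 9.42% (6.25 to 13.5) and 6.99% (4.05 to 11.1), and the last step, 10 or more, held 31 and 13 cells. The intervals of the libraries did not overlap at 0, 1 and 2 marker UMIs, and overlapped at the 3 higher steps. The shares of B-like cells in the steps were close, with 37.0% and 38.9% at no marker UMI. Of 11 activated B genes measured in B-like cells 5 were lower and 0 higher, where 18.6% of all genes were lower and 15% higher, with a median ratio of -0.24 against -0.04 for all genes: Irf4, a transcription factor of activated B and plasma cells, stood at -0.69 and the nuclear receptor Nr4a3 at -0.80, while Myc stood at 0.16 and Nr4a1 at 0.15.

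**Figure D3:**
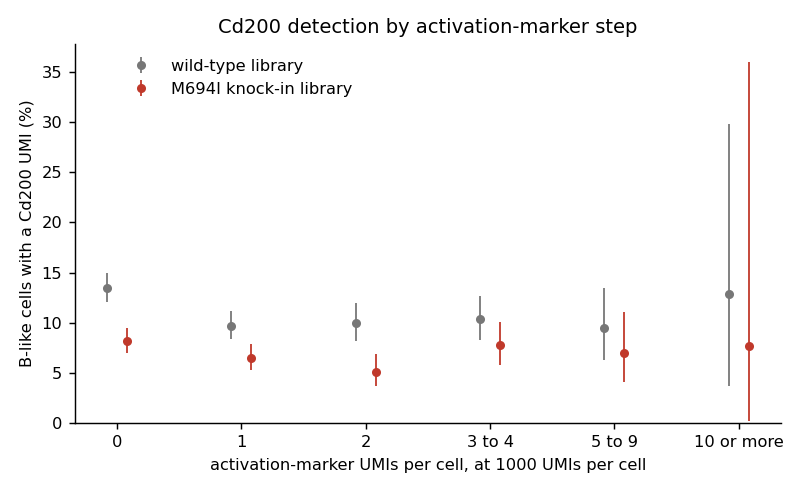
Share of B-like cells with a Cd200 UMI (y axis, %) by the number of activation-marker UMIs in the cell (x axis), with every cell thinned to 1000 UMIs; grey is wild type, red is knock-in, bars are 95% counting intervals. The intervals of the libraries are separate at 0, 1 and 2 marker UMIs. They overlap at higher steps, where the knock-in points are still the lower ones. Both shares are highest at 0 marker UMIs among the steps up to 9.

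The mitochondrial share of UMIs differed between the libraries, with medians of 5.01% and 4.21% in B-like cells. Within B-like cells at 3% to under 5% mitochondrial UMIs the Cd200 ratio was -0.73 (-0.88 to -0.58), at 5% to under 7% it was -0.92 (-1.14 to -0.69), and at 7% to under 10% it was -1.17 (-1.73 to -0.65). Under 3%, with 252 wild-type and 667 knock-in cells, it was -0.43 (-0.91 to 0.06). Marker UMIs of other classes in B-like cells were low, with T markers at 22.2 and 23.7 CPM, NK markers at 6.50 and 4.94 CPM and monocyte markers at 14.4 and 17.6 CPM (6 of 6, 6 of 6 and 12 of 12 markers seen in wild type; 6, 6 and 11 in knock-in). Plasma cell markers were 443.4 and 746.0 CPM. Their part in the Cd200 difference was not tested.

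Cells were also grouped by their whole expression profile, into 29 clusters over both libraries. Cd200 was lower in the knock-in library in 10 of 10 B-like clusters with at least 50 cells in each library, at ratios from -1.19 to -0.11, and 6 of these intervals lay below 0. B-like cells make up most of the contrast Cd200 was chosen on, and the clusters are parts of the same libraries. This count is therefore a description and not separate support, and the share of all genes lower was not computed by cluster. Cluster 18, led by dividing-cell genes that include Pclaf and Birc5 and by the granule genes Ctsg and Elane, takes no name by a rule set after the clusters were seen, and stood at -1.68 (-2.38 to -1.02). The highest B levels were in cluster 1, led by Akap12, Tifa and Sox4 (268 and 136 CPM, ratio -0.98, -1.21 to -0.76), and in cluster 5, led by Mylip, Zfp318 and Cd200 itself (229 and 100 CPM, ratio -1.19, -1.55 to -0.86). Cluster 4, led by Bcl11a and Fcer2a, the low-affinity IgE receptor, stood at 71.8 and 65.2 CPM (-0.14, -0.56 to 0.28). Cluster 6, led by Mir155hg and Nfkbid, stood at 102 and 75.3 CPM (-0.44, -0.93 to 0.03). These clusters were formed without Cd200 and its receptor genes, while their leading genes were ranked afterwards among all genes. Their levels and ratios are descriptions.

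The highest Cd200 level of any cluster was outside the B cells. Cluster 22, of 79 wild-type and 61 knock-in cells, was led by Il12b, which codes for the p40 subunit of interleukin 12, and by Fscn1 and Cacnb3. It held 67 and 42 Cd200 UMIs, or 287 and 302 CPM, a ratio of 0.07 (-0.52 to 0.65). It is left unnamed, since 51.4% of its cells were ungated or mixed by the marker gates. The interval of this ratio includes 0, and its difference from the B cluster ratios was not tested.

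**Figure D4:**
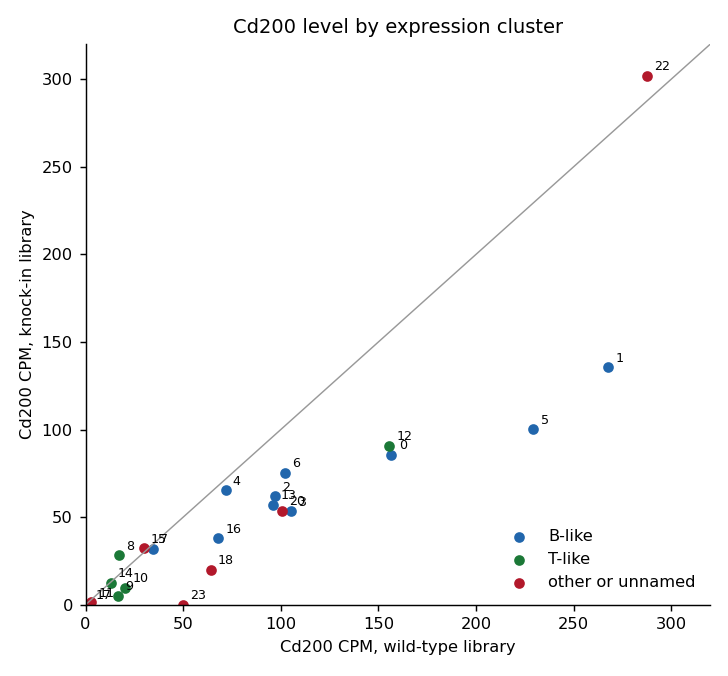
Cd200 CPM in the wild-type library (x axis) against the knock-in library (y axis) for the 22 clusters with at least 50 cells in each library; numbers name clusters and the line marks equal levels. Of these, 19 lie below the line, and cluster 22 lies at the top right, near the line.

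In T-like cells Cd200 stood at 38.7 CPM in wild type (262 UMIs) and 24.4 CPM in knock-in (127 UMIs), a ratio of -0.67 (-0.98 to -0.35); 13.2% of 6776 genes were lower there. With the same cells thinned to an equal depth of 1000 UMIs, 57 and 50 UMIs were left, the shares of cells with a UMI were 2.46% and 2.43%, and the ratio was -0.075 (-0.65 to 0.50). With cells thinned before gating, which also changes the class, it was -0.21 (-0.82 to 0.41). Both equal-depth intervals include 0. Regulatory T-like cells, gated on Foxp3, Il2ra and other genes, stood at 128.8 and 68.5 CPM (126 and 62 UMIs, ratio -0.91, -1.37 to -0.46), and follicular helper T-like cells, which help B cells in follicles, at 72.8 and 39.6 CPM (48 and 19 UMIs, -0.88, -1.73 to -0.08). With the same cells thinned, the shares with a UMI were 6.36% and 6.46% for regulatory and 5.31% and 5.69% for follicular helper T-like cells, and the ratios were -0.18 (-1.22 to 0.87) and -0.48 (-2.14 to 1.11). With cells thinned before gating they were -1.66 (-3.82 to 0.18) and -0.10 (-2.90 to 3.37), so the regulatory value depends on the order of these steps. CD8 T-like cells held 17 and 8 UMIs (10.1 and 4.37 CPM). CD4 T-like cells outside these subsets held 7 UMIs in 160 wild-type cells and 10 in 87 knock-in cells, or 13.9 and 49.2 CPM, a ratio of 1.82 (0.28 to 3.45). NK-like cells held 2 and 1 UMIs.

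Among myeloid classes the Cd200 counts were small, and its level was highest in the plasmacytoid and conventional dendritic classes. Conventional dendritic-like cells stood at 41.9 and 51.9 CPM (17 and 13 UMIs, ratio 0.31, -0.85 to 1.44), and plasmacytoid dendritic-like cells, the type I interferon producers, at 74.3 and 71.2 CPM (11 and 10 UMIs, -0.06, -1.45 to 1.31). Monocyte-like cells held 17 and 2 UMIs, of which 8 wild-type UMIs lay in 1 cell. Neutrophil-like cells held 6 and 0 UMIs, with 5 of the 6 in 1 cell; 0 of 54 knock-in cells allows, at 3 counts, a share of cells with a UMI of up to 5.56%. Macrophage-like cells held none in 17 and 19 cells.

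The receptor genes gave few UMIs in either library. Cd200r1, the inhibitory receptor, had 19 wild-type and 24 knock-in UMIs over all kept cells, 0.644 and 1.02 CPM (ratio 0.67, -0.26 to 1.62). Cd200r4, of the activating branch, had 27 and 24 UMIs, 0.915 and 1.02 CPM (0.16, -0.69 to 1.01). Neither passed the filter on low values in any comparison, so only counts and intervals are given.

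In wild type, Cd200r1 UMIs came mainly from monocyte-like and T-like cells, with 8 and 7 of 19. In knock-in they came mainly from T-like cells, with 17 of 24. The myeloid classes together held 9 and 3 UMIs, or 5.31 and 2.50 CPM, a ratio of -1.09 (-3.61 to 0.91). All 8 wild-type UMIs of monocyte-like cells were in classical monocyte-like cells, against 1 in knock-in. By expression profile, however, 6 of those 8 lay in cluster 15, which is led by Siglech, Cd209a, Cd209d and Klk1 and takes no name here, and 2 in the Fn1 and Lyz2 monocyte cluster. Cluster 15 in all held 9 and 4 Cd200r1 UMIs (9.59 and 5.86 CPM, -0.71, -2.86 to 1.13). T-like cells held 7 and 17 UMIs, or 1.03 and 3.26 CPM, a ratio of 1.66 (0.32 to 3.17). Of these, 2 wild-type and 8 knock-in UMIs lay in cluster 12, led by genes that include Tnfrsf4, Tnfsf8 and Areg. With the same T-like cells thinned to 1000 UMIs the ratio was 2.28 (0.01 to 5.53), from 2 and 9 UMIs. With cells thinned before gating it was 1.92 (-0.41 to 5.19), an interval that includes 0. B-like cells held 1 and 2 UMIs in 6246 and 5299 cells.

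Cd200r4 UMIs were found where cytotoxic lymphocytes are. NK-like cells held 13 and 5 UMIs, 14.5 and 13.4 CPM (ratio -0.11, -1.96 to 1.47), and T-like cells 8 and 18 UMIs, 1.18 and 3.46 CPM (1.55, 0.28 to 2.96). The gates and the clusters divide these cells differently: 6 of the 18 knock-in UMIs of T-like cells, but 1 of the 8 wild-type UMIs, lay in cluster 11, the NK cluster led by Gzma and Klra4. That cluster held 14 and 12 UMIs, 13.1 and 19.6 CPM (0.58, -0.67 to 1.80), and with T cells taken from the clusters the T ratio was 1.16 (-0.30 to 2.74). Myeloid cells held 2 and 0 Cd200r4 UMIs, and no ratio is given because both are at or under 3 counts; 0 of 333 knock-in cells allows, at 3 counts, a share of cells with a UMI of up to 0.901%. Myeloid classes thus gave 9 of 19 wild-type and 3 of 24 knock-in UMIs of Cd200r1, and 2 of 27 and 0 of 24 of Cd200r4. Of the rest of the family, Cd200r2 had 1 and 1 UMIs, and Cd200r3 had 24 and 7, of which T-like cells held 16 and 5.

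**Figure D5:**
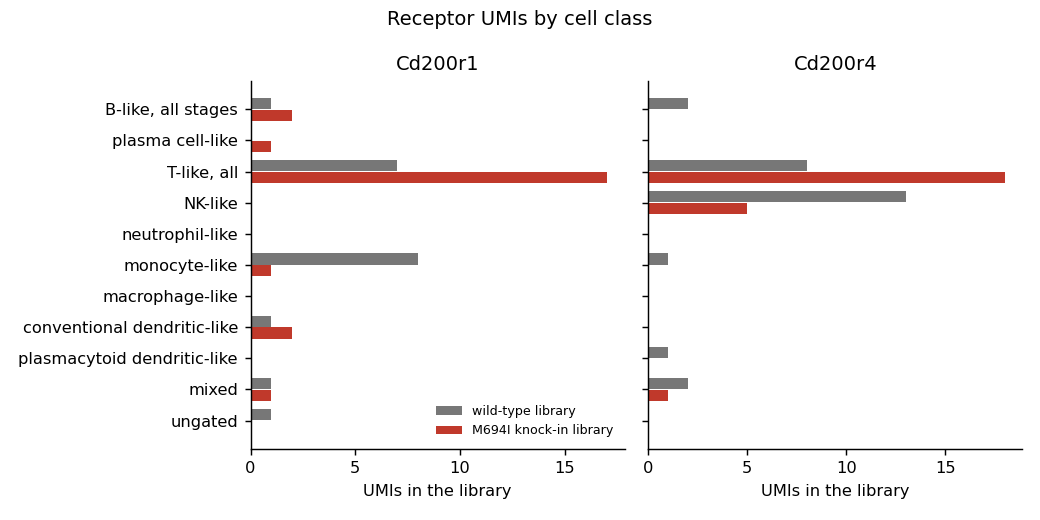
UMIs (x axis) of Cd200r1 (left) and Cd200r4 (right) by cell class (y axis) in the wild-type (grey) and knock-in (red) libraries. T-like cells hold most knock-in UMIs of both genes, 17 and 18, and NK-like cells hold more wild-type UMIs of Cd200r4, 13, than any other class.

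The genes whose class pattern was most like that of Cd200 over 30 class and library sums (15 classes, 7329 genes compared) were Zfp36l1, an RNA-binding protein that promotes mRNA decay (r = 0.81), Ap1s3 (0.80), Nucks1 (0.79), Lrba, a regulator of vesicle traffic (0.79), and Phip (0.78). For Cd200r1 they were Tmem65 (0.72), Areg, the growth factor amphiregulin (0.70), Hopx (0.69), Hif1a (0.69) and Gstp3 (0.68), and for Cd200r4 Qrfp (0.84), Sytl3 (0.81), Nsd3 (0.80), perforin (Prf1, 0.80) and the transcription factor Eomes (0.79). These r values describe sums that share library and depth, and the receptor values rest on few UMIs.

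Downstream partners were measured more deeply, over all kept cells and not only in cells with a receptor UMI. Of 7 inhibitory adaptors of the receptor, 7 passed the filter over all kept cells, 2 were lower and 0 higher, with a median of -0.21 against -0.08 for all genes, of which 22.4% were lower and 12.5% higher. Inpp5d, the lipid phosphatase SHIP1, stood at -0.57 and the adaptor Crkl at -0.39, while Dok1 and Dok3 stood at 0.20 and 0.29 and Dok2 at -0.13. Of 3 activating adaptors, Syk, the kinase that DAP12 recruits, was lower (-0.56), while Tyrobp itself stood at -0.10 and Hcst, the adaptor DAP10, at -0.15. Tyrobp in T-like cells stood at 0.95, from 48.1 to 92.7 CPM, in the class where NK markers were 90.4 and 122.7 CPM. B-like cells, with 1 and 2 Cd200r1 UMIs, held 4292 of 5344 wild-type Inpp5d UMIs and 5089 of 5905 Syk UMIs. In the myeloid classes together 3 of 6 measured inhibitory adaptors were lower and 1 higher, with 28.4% of all genes lower and 21.4% higher. Inpp5d stood there at -0.70 (-1.01 to -0.40) and Dok3 at 0.32 (-0.17 to 0.81). Whether receptor signalling differed was not tested.

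Other inhibitory ligands and receptors between lymphoid and myeloid cells were measured in the same way. Of 13 over all kept cells 2 were higher, against 12.5% of all genes, Cd72, a B cell co-receptor (0.54), and Cd24a, a sialoglycoprotein that binds Siglec proteins (0.48), and 1 was lower, against 22.4% of all genes, Lilrb4a, an inhibitory receptor of myeloid cells (-0.52). In B-like cells 2 of 10 were higher, Cd72 (0.65) and Cd24a (0.50), and 0 lower, with 15% of all genes higher and 18.6% lower; Cd47, the "do not eat me" ligand of Sirpa, stood at 0.30 and Cd52 at 0.26. In T-like cells 6 of 9 were higher and 0 lower, with 18.1% of all genes higher and 13.2% lower, among them Pdcd1, which codes for PD-1 (1.13), and Cd52 (0.42). In the myeloid classes together 4 of 13 were higher and 3 lower, with 21.4% of all genes higher and 28.4% lower: the lower were Lilrb4a (-0.85), Cd274, which codes for PD-L1 (-0.65), and Sirpa (-0.36), and the higher included Cd72 (0.55) and Cd47 (0.32).

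Of the 20 genes within 500 kb of a member on chromosome 16, 4 passed the filter over all kept cells and 0 were called, where 22.4% of all genes were lower and 12.5% higher: Atg3, of the autophagy machinery, stood at 0.19, Btla, an inhibitory receptor, at -0.23, Abhd10 at -0.09 and Sidt1 at -0.08. Within classes Abhd10 was below the threshold in activated B-like cells (-0.39, -1.09 to 0.27), where 23.6% of genes were lower and 19.4% higher, and Btla was above it in T-like cells (0.33, -0.06 to 0.72).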

How the data were processed

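The deposited matrices give unnormalized UMI counts for each gene in each barcode. Per the file headers they came from Cell Ranger 6.1.2, whereas version 7.1.0 of that tool, Seurat 5.0.3 and the build mm10 are listed in the submitters' processing notes. Libraries used the 10x 3' v3.1 chemistry, which reads transcript 3' ends. The annotation used is not given in the sources used here. Gene positions came from GENCODE M21 of GRCm38, and the promoter from RefSeq.

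Cells with at least 500 UMIs, 200 genes and under 10% mitochondrial UMIs were kept. Scrublet (scanpy 1.11.5) doublets were removed at a score of 0.3, set after the scores were seen because its own threshold marked 1 knock-in cell; this took 353 wild-type and 281 knock-in cells. A cell took the class with the most marker UMIs relative to its gate (at least 3 for B, T and NK, 6 activation UMIs for activated B). It was mixed where a second lineage also passed and reached at least 0.5 of the top value relative to its gate. Cells with a weaker second lineage stayed in their class. Of the wild-type activated cells 267 of 893, and of the knock-in 162 of 491, lay within 1 UMI above that gate. UMIs were summed per class and scaled to CPM, with Poisson, Clopper-Pearson and conditional binomial intervals; a sum of 0 stands at 3 counts. Clusters used leidenalg 0.10.2, were named from the same markers, and stayed unnamed where dividing-cell and granule genes led, a rule set after they were seen; TMM factors used edgeR 4.0.16. Ratios and intervals were tried on simulated Poisson counts, which hold counting error only, so differences between mice were not part of that check.

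The members and lists were chosen with earlier results of these data known. Named genes are the members, the measured list members, and the 5 genes most like each member.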

Additional observations from a re-analysis of the deposited data

Results flagged for a closer look

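Cd200 in CD4 T-like cells outside the regulatory and follicular helper subsets had a log2 ratio of 1.82 (0.28 to 3.45), while the other classes whose counting interval lay clear of 0 had lower knock-in values. It rests on 7 wild-type and 10 knock-in UMIs, and the difference between the classes was not tested. Across the alternatives it ranged from 1.17 to 3.59, the highest with cells under 5% mitochondrial UMIs. The interval reached below 0 with stricter gates (1.36, -1.20 to 4.13), with cells thinned before gating (1.83, -0.23 to 4.38) and with the class kept and its cells thinned (1.33, -1.24 to 4.10).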

How the results depend on the processing

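Cd200 kept a lower knock-in value in B-like cells under all 12 alternatives run (-0.89 to -0.77) and at equal class shares (-0.89 to -0.80). In activated B-like cells its ratio also stayed below 0, from -0.92 to -0.41. The first, with cells thinned before gating, had an interval of -2.58 to 0.55. The last, with the class kept and its cells thinned, had one of -1.05 to 0.19, and both include 0. Over all kept cells it moved to -0.81 with cells thinned to 1000 UMIs, -0.82 with each cell weighted equally and -0.78 with a 5% mitochondrial limit, which kept 5460 wild-type and 6301 knock-in cells. In T-like cells it moved to -0.29 with each cell weighted equally, to -0.21 with cells thinned before the gates were applied, which also changes the class, and to -0.075 with the class kept and its cells then thinned. The Cd200r1 ratio in myeloid cells ranged from -1.10 to -1.03, and the thinned and cluster alternatives gave no value for it; Cd200r4 there gave no value. In conventional dendritic-like cells the Cd200 ratio of 0.31 became -0.89 with stricter gates. The Cd200r4 ratio over all kept cells, 0.16, was -0.43 with cells thinned and -0.15 with the 5% limit, all with intervals across 0. In T-like cells the Cd200r4 ratio of 1.55 became 0.53 (-2.03 to 3.30) with the class kept and its cells thinned. The Cd200r1 ratio of 1.66 there became 2.28 (0.01 to 5.53) in that way, and 1.92 (-0.41 to 5.19) with cells thinned before gating. No called Cd200 ratio changed sign in the alternatives run. Keeping the classes and then thinning, and leaving out barcodes found in both libraries, were chosen after the data were seen; the latter changed no call. Without the filter on low values 21.4% of genes were lower in T-like cells, against 13.2%. No paired analysis was possible because each genotype has 1 library; for the same reason no replicate could be left out. Receptor counts of 0 to 18 UMIs per class limit what can be seen at this depth.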
